A study of Mus musculus with 56 samples.

Results

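Cfd, Adipoq, Plin1, Fabp4, Ucp1, Cidec, Retn, Lep and Car3, genes known for their expression in fat tissue, were followed in mouse kidney. They are 9 of the 50222 gene identifiers counted, matched by symbol, and were chosen by the CPM values that earlier work on these same kidney libraries had shown. Their levels are therefore given as a description, with no test. Ribosome footprints (the mRNA fragments that ribosomes protect, a readout of translation) and total RNA had been sequenced from 2 tissues, liver and kidney, in C57BL/6 mice that differed in age, with no treatment or genetic change named. Kidney footprints comprised 4 libraries labelled 3 months, 3 labelled 20 months and 3 labelled 32 months. Liver footprints comprised 18 libraries labelled 1, 3, 11, 20, 26 or 32 months, and 28 RNA libraries carried the same tissue and age labels.

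Adipocytes store triglyceride in lipid droplets and secrete hormones. White adipocytes hold a large droplet and secrete leptin, while brown adipocytes hold many small droplets and produce heat through the uncoupling protein UCP1. Perirenal fat surrounds the kidney and fat also lies in the renal sinus, and in mice these depots can hold adipocytes of both kinds.

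The libraries differed in ways that touch the values of these genes. Total counts ran from 10388818 to 30517983 in kidney footprints. Kap, which proximal tubule cells express under androgen control, was at 988 to 23354 CPM (a depth-normalized count, each gene relative to all genes of its library) in kidney footprints and reached 13.3 CPM in liver footprints. It exceeded 10000 CPM in 10 of the 28 RNA libraries, where it was at 29178 CPM or more, and the highest of the other 18 had 19.6 CPM. Of these 10 kidney-profile RNA libraries 3 were labelled kidney and 7 were labelled liver, so RNA is described by profile and no age is read from it. Library 2 labelled 3 months had the lowest Kap of the kidney footprints, and its summed proximal tubule markers were at 31559 CPM against a median of 64640 CPM. The series describes 2 animals at 32 months and 3 at the other ages, fewer than the kidney libraries with the 32-month and 3-month labels, so some libraries may share an animal and p-values measure the spread between libraries.

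Upstream sequences are shown for 3 genes whose levels moved together across kidney libraries (Cfd, Adipoq, Plin1) and for the pair that departed from them most (Lep, Ucp1). Each is the 250 bases before a transcription start, 5′ to 3′ on the strand of the gene, from RefSeq (GRCm38.p6). Capitals mark TTGCNNAA, the letters of a C/EBP-type site, and AGGTCA, a nuclear receptor element, both searched on both strands.
Cfd (chr10:79890603-79890852, plus strand): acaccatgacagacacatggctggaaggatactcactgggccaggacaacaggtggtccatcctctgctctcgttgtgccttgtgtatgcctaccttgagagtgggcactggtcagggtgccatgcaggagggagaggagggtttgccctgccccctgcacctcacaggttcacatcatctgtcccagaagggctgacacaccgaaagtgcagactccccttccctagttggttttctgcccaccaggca
Adipoq (chr16:23146286-23146535, plus strand): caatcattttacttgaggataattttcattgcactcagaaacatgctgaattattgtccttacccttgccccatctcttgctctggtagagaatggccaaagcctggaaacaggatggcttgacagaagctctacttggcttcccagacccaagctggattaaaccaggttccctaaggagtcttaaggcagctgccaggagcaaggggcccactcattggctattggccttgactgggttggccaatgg
Plin1 (chr7:79732777-79733026, minus strand): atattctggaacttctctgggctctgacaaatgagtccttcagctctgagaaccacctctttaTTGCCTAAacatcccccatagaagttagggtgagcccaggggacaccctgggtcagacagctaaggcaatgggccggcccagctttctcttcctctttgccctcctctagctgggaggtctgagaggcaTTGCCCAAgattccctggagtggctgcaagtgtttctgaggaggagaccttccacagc
Lep (chr6:29059971-29060220, plus strand): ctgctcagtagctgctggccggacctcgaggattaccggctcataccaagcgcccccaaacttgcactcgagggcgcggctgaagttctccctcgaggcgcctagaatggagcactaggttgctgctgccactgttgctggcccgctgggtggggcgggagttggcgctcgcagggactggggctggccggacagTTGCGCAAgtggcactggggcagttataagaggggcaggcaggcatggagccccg
Ucp1 (chr8:83290098-83290347, plus strand): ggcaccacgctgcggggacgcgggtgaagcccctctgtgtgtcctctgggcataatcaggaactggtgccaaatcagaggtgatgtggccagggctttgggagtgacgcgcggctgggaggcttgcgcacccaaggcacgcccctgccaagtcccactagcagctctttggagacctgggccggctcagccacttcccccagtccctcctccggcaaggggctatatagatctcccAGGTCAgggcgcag

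TTGCNNAA lay in the sequences of Lep (at base −55) and Plin1 (at −187 and −58) and in 1 of 2 start regions of Cidec (at −198). The same letters are present in 9.56% of 32851 mouse promoters of that length. AGGTCA lay in the Ucp1 sequence (at −14) and in no other of the 8 member promoters, against 14.0% of all promoters. The direct repeat DR1, a pair of AGGTCA elements with 1 base between them that the adipocyte receptor PPARG binds with its partner RXR, was in 0 of 8 and in 0.0335% of all. TATAAA was in 0 of 8, against 12.4% of all. These matches describe letters in a window, and none says whether a factor binds there. The 8 promoters belong to 7 genes, without Fabp4 and Car3.

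The summed level of the 9 genes varied 17.2-fold over the kidney footprint libraries. It was 60.4, 531.3, 69.8 and 613.1 CPM in libraries 1 to 4 labelled 3 months, 1037, 687.6 and 555.9 CPM in libraries 1 to 3 labelled 20 months, and 296.0, 118.5 and 155.0 CPM in libraries 1 to 3 labelled 32 months. The 3-month libraries reached both low and high values, with libraries 1 and 3 the lowest of all 10, and every 20-month library lay above every 32-month one. In tissue pieces, fewer adipocytes and less RNA per adipocyte cannot be told apart.

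**Figure D1:**
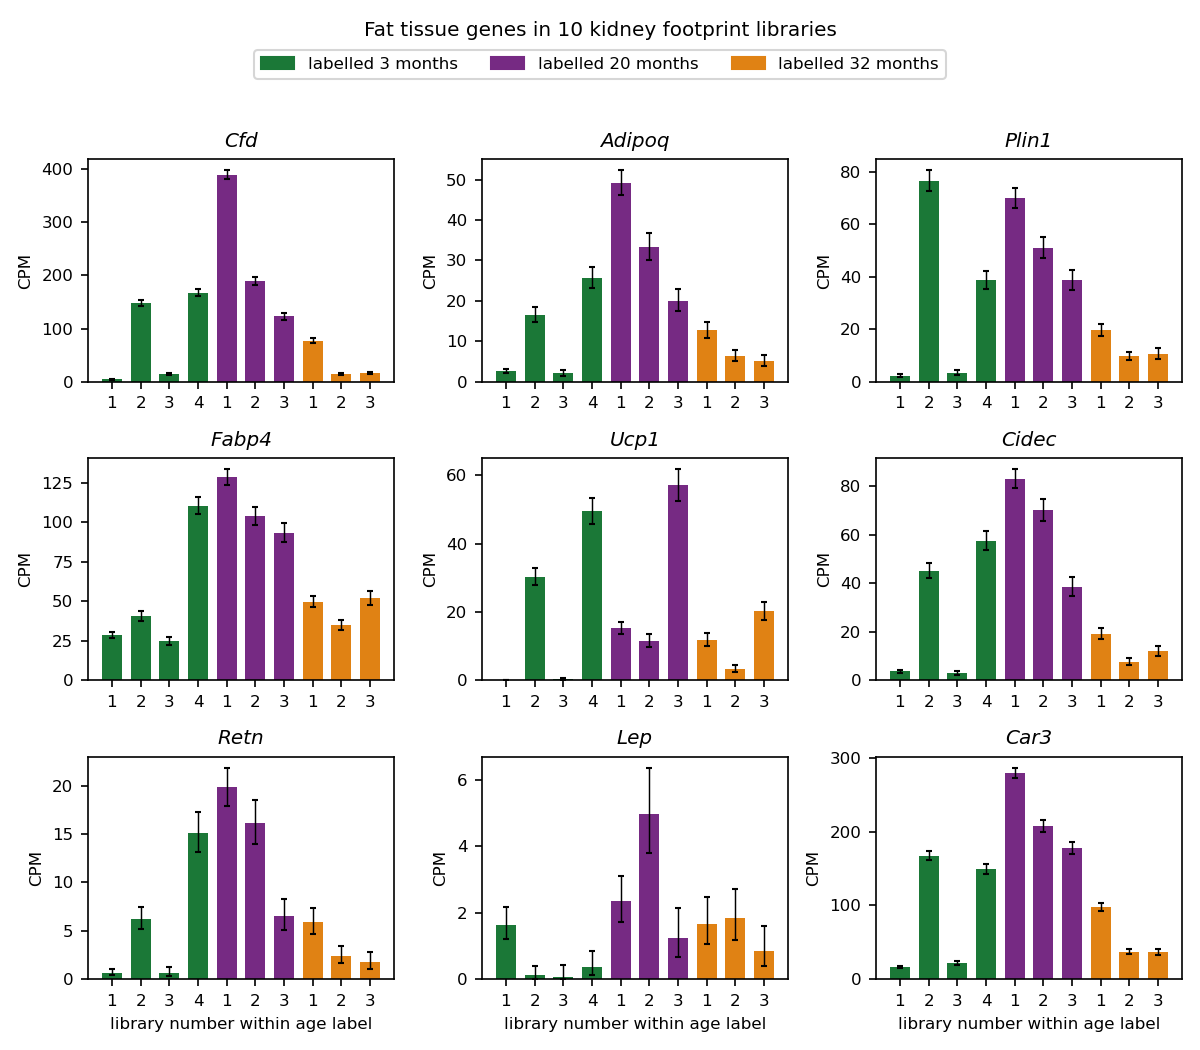
Level of each gene (CPM, vertical axis from 0) in each of the 10 kidney footprint libraries, coloured by age label. Bars are single libraries and whiskers are 95% exact Poisson intervals, which cover counting error only. Libraries 1 and 3 labelled 3 months are the lowest pair for every gene but Lep, and Ucp1 is highest in library 3 labelled 20 months (57.1 CPM).

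Among the secreted products, Adipoq encodes the hormone adiponectin. Adipoq was at 2.56, 16.5, 2.07 and 25.7 CPM in the 3-month libraries, at 49.2, 33.3 and 20.0 CPM in the 20-month libraries and at 12.7, 6.33 and 5.07 CPM in the 32-month libraries. The 20-month values lay above the 32-month values, and the 3-month values overlapped both. Cfd encodes complement factor D (adipsin), a protease that adipocytes secrete. Cfd was at 4.10, 148.5, 14.1 and 167.1 CPM at 3 months, at 389.5, 189.5 and 122.8 CPM at 20 months and at 77.3, 14.9 and 16.1 CPM at 32 months. Its highest library, the first labelled 20 months, exceeded its lowest, the first labelled 3 months, 95.1-fold. Retn encodes resistin, a hormone of adipocytes in mice. Retn was at 0.655, 6.23, 0.666 and 15.1 CPM at 3 months, at 19.8, 16.1 and 6.55 CPM at 20 months and at 5.91, 2.43 and 1.78 CPM at 32 months. It put the libraries in nearly the order that Adipoq did.

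Lep, which encodes the hormone leptin, did not follow the others. Lep was at 1.64, 0.109, 0.0740 and 0.359 CPM in the 3-month libraries, from 50, 2, 1 and 5 reads. It was at 2.34, 4.98 and 1.25 CPM in the 20-month libraries (47, 62 and 13 reads) and at 1.66, 1.84 and 0.844 CPM in the 32-month libraries (23, 25 and 9 reads). Library 1 labelled 3 months, the lowest in summed level, had more Lep than 5 other libraries, while libraries 2 and 4 of that label, with high sums, were among the 3 lowest. Per 100 reads of Adipoq, Lep had 0.664 reads in library 2 labelled 3 months and 64.1 reads in library 1 of the same label, with a median of 9.66 over the 10 libraries.

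The genes of the lipid droplet moved with Adipoq. Plin1 encodes perilipin 1, which coats the droplet and restrains lipolysis. Plin1 was at 2.33, 76.5, 3.40 and 38.7 CPM at 3 months, at 69.9, 50.8 and 38.7 CPM at 20 months and at 19.6, 9.65 and 10.6 CPM at 32 months. Library 2 labelled 3 months was the highest for Plin1 but ranked lower for Adipoq, and it had 464.8 Plin1 reads per 100 Adipoq reads against a median of 153.5. Cidec encodes a droplet protein that promotes the growth of large droplets. Cidec was at 3.67, 45.2, 2.96 and 57.5 CPM at 3 months, at 83.1, 70.1 and 38.5 CPM at 20 months and at 19.1, 7.73 and 11.9 CPM at 32 months. As for Adipoq, the 20-month and 32-month values did not overlap.

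Fabp4 encodes a fatty acid binding protein of adipocytes that endothelial cells and macrophages also make. Fabp4 was at 28.8, 40.7, 24.8 and 110.4 CPM at 3 months, at 128.6, 103.8 and 93.4 CPM at 20 months and at 49.7, 35.1 and 52.1 CPM at 32 months. It varied 5.19-fold from lowest to highest library, the narrowest range of the 9 genes. Car3 encodes carbonic anhydrase 3, abundant in fat, muscle and liver. Car3 was at 16.6, 167.4, 21.5 and 149.0 CPM at 3 months, at 279.7, 207.6 and 177.6 CPM at 20 months and at 98.1, 37.1 and 36.4 CPM at 32 months. Its share of the summed level stayed between 23.5% and 33.1%.

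Ucp1, the uncoupling protein of brown fat, varied less closely with the other members. Ucp1 was at 0, 30.2, 0.296 and 49.4 CPM at 3 months, at 15.2, 11.5 and 57.1 CPM at 20 months and at 11.8, 3.39 and 20.2 CPM at 32 months. The 0 in library 1 labelled 3 months allows up to 0.0983 CPM (3 counts of its total, counting error only), and the 3 age labels overlapped. Per 100 reads of Adipoq, Ucp1 had 0 to 398.1 reads with a median of 73.3, so the balance of the pair differed widely between pieces. The ratio was 398.1 in library 3 labelled 32 months and 285.1 in library 3 labelled 20 months, but 30.9 in library 1 labelled 20 months, which had the most Adipoq.

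**Figure D2:**
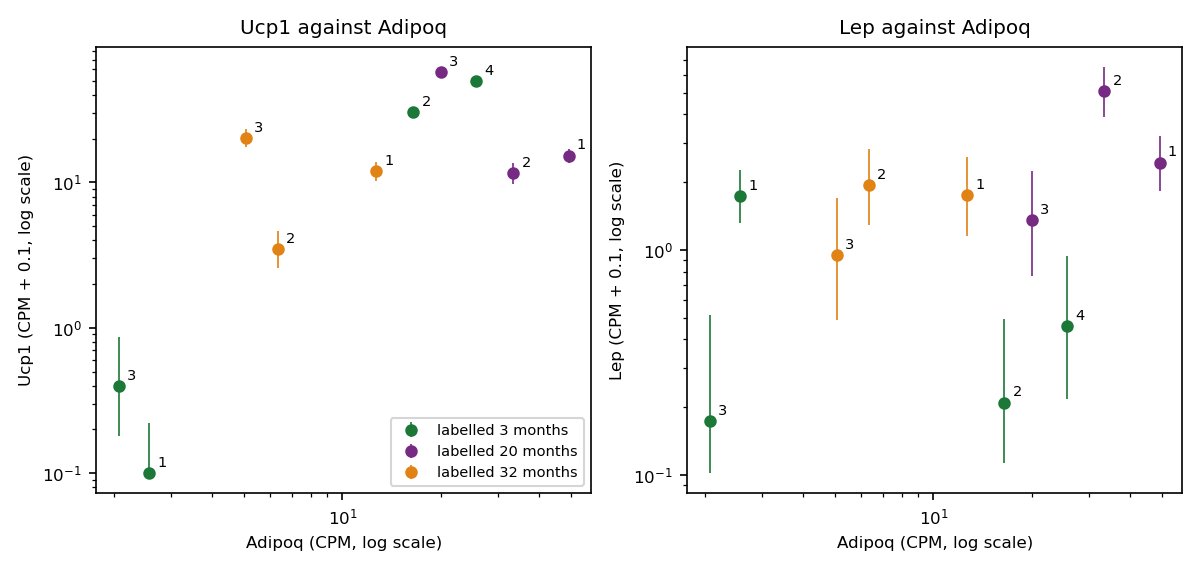
Ucp1 (left) and Lep (right) against Adipoq in the 10 kidney footprint libraries, as CPM on log axes with 0.1 added to the vertical values. Points are libraries numbered within their age label and bars are 95% exact Poisson intervals. Library 1 labelled 20 months has the most Adipoq (49.2 CPM) but not the most Ucp1 (15.2 CPM), and Lep spreads at every level of Adipoq.

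Pairs among the 7 genes other than Ucp1 and Lep had Pearson correlations of log2(CPM + 0.1) between 0.785 and 0.991 over the 10 kidney footprint libraries, with a median of 0.955. Ucp1 had 0.728 to 0.863 with these 7, and Lep had 0.037 to 0.433 with the other 8. In the 10 kidney-profile RNA libraries the same ranges were 0.911 to 0.990, 0.773 to 0.856 and −0.207 to 0.024. All genes of a library share its depth and scaling, and these correlations describe 10 libraries.

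**Figure D3:**
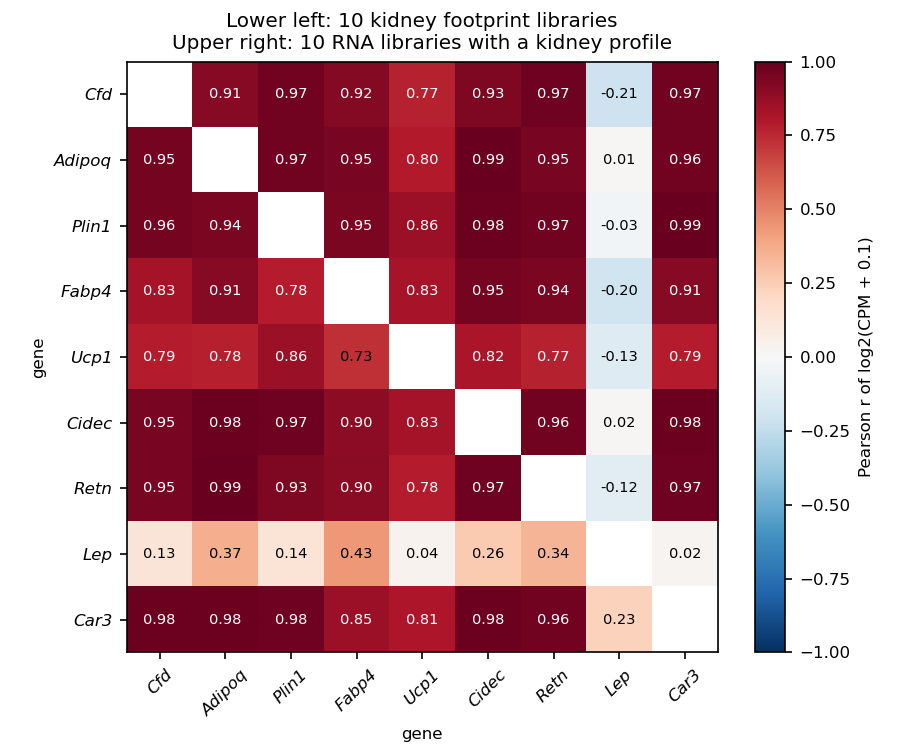
Pearson r of log2(CPM + 0.1) for each pair of the 9 genes, over 10 kidney footprint libraries (lower left) and over 10 kidney-profile RNA libraries (upper right). Colour runs from −1 (blue) to 1 (red). The Lep row and column are pale, with at most 0.43. Apart from Lep, Ucp1 has 0.728 to 0.863 in footprints, which overlaps the other 21 pairs (0.785 to 0.991). In RNA it has 0.773 to 0.856, below all 21 (0.911 or more).

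The genes whose footprints most resembled the mean of the 9 were named by rank of r over the 10 libraries, among 13633 genes that averaged 1 CPM or more, of which 18 (0.132%) had r above 0.9. They were Lgals12 (r = 0.985), Pnpla3 (0.978), Acvr1c (0.968), Thrsp (0.962), Nat8l (0.957), Apol6 (0.948), Cox8b (0.937), Cidea (0.935), Aoc3 (0.926) and Adrb3 (0.919). Predicted gene models, RIKEN clones, identifiers without a symbol and immunoglobulin or T cell receptor segments were passed over in naming, though the counts include them. Lgals12 encodes a galectin of lipid droplets, Thrsp a lipogenic nuclear protein and Adrb3 the beta-3 adrenergic receptor. Cidea and Cox8b are genes of brown adipocytes. Cidea ranged from 0.164 to 21.3 CPM and Cox8b from 0.0655 to 12.2 CPM.

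Further fat genes were taken from lists made with earlier results known. Above r = 0.9 with the mean of the 9 were 6 of 23 other adipocyte genes, 3 of 15 brown adipocyte genes, 1 of 11 fatty acid synthesis genes and 0 of 10 white adipocyte genes. The 3 brown genes were Ebf2 (r = 0.954), Cox8b and Cidea, and Otop1 (r = 0.88), Kcnk3 (0.78), Elovl3 (0.63) and Dio2 (0.56) came next. With Ucp1 alone, r was 0.96 for Cidea and for Cox8b, 0.94 for Otop1, 0.82 for Elovl3, 0.79 for Kcnk3, 0.77 for Ebf2 and 0.74 for Dio2. Cidea is a lipid droplet protein, Cox8b a subunit of cytochrome c oxidase, Ebf2 a transcription factor of adipocyte precursors and Dio2 the enzyme that activates thyroid hormone. The values of Cidea, Cox8b and Otop1 with Ucp1 lay above those of the other 8 members with Ucp1 (at most 0.863). The remaining 8 of the 15 brown genes had at most 0.37 with the mean of the 9, among them Pank1 (0.37), Prdm16 (0.07) and Ppargc1a (−0.006). Prdm16, a regulator of brown fat identity, was at 23.7 to 60.6 CPM, Zic1 reached 0.0938 CPM and Lhx8 had 0 reads in all 10 libraries. Of the white list, Nnat had r = 0.65, Fgf10 0.82 and Agt −0.38. Some white genes were high in every kidney library, with lowest values of 377.2 CPM for Cyp2e1, 60.0 CPM for Nrip1 and 44.2 CPM for Agt. Wfdc21 reached only 0.359 CPM. Such genes leave little room to follow the 9, and the mean of the 9 includes Ucp1. The counts per list therefore do not compare white with brown fat.

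Markers of other cell types were summed in the same libraries. Adrenal cortex markers were at 302.8 CPM and adrenal medulla markers at 79.1 CPM in library 4 labelled 3 months, which also had the second-highest Ucp1, and at most 3.21 and 0.299 CPM in the other 9. In kidney-profile RNA these sums were highest in the library labelled liver at 32 months with number 2, at 408.4 and 301.3 CPM. B and plasma cell markers ran from 22.2 to 2586 CPM, with r = −0.75 with the summed level of the 9 genes, and urothelium markers from 2.72 to 28.1 CPM, with r = 0.78. Thick ascending limb and collecting duct markers ran from 4798 to 10378 CPM (r = −0.61) and macrophage markers from 169.3 to 348.3 CPM (r = −0.57). The fat genes were thus high where summed B cell and macrophage markers tended to be low and summed urothelium markers high. These are 10 libraries that share depth and scaling. Genes of the thick ascending limb and collecting duct list differed, in a sum that Umod led (2181 to 7087 CPM). With the mean of the 9, r was −0.54 for Umod, −0.55 for Slc12a1, −0.35 for Slc12a3 and −0.13 for Hsd11b2. It was 0.25 for Aqp2 and 0.60 for Calb1. Adipose stroma markers, of the connective cells between adipocytes, ran from 285.8 to 436.4 CPM with r = 0.008, and endothelium markers from 403.8 to 478.9 CPM with r = 0.04. Skeletal muscle markers were at 5.03 to 18.1 CPM (r = 0.50), a sum made mostly of Pvalb (3.77 to 15.1 CPM). Of the same list Myh1, Myh4 and Tnnc2 were at 0 CPM and Ckm reached 0.0717 CPM, so the sum says little about muscle. Smooth muscle markers were at 120.6 to 313.8 CPM (r = −0.02) and mesothelium markers at 18.1 to 159.7 CPM (r = −0.07). The sums of stroma, endothelium, smooth muscle and mesothelium markers showed little relation to the fat genes over these libraries, but single genes differed. With the mean of the 9, r was 0.74 for Pi16 and −0.62 for Pdgfra of the stroma list. The rest of that list lay between −0.20 (Dpp4) and 0.33 (Col3a1). Gpm6a, the most abundant mesothelium marker on average, had −0.05, with Lrrn4 at 0.67, Upk3b at 0.41, Krt19 at 0.39 and Msln at 0.35. Podocyte markers were at 368.8 to 609.1 CPM (r = −0.28), hepatocyte markers at 81.9 to 257.4 CPM (r = −0.17), proximal tubule markers at 31559 to 65719 CPM (r = −0.10) and pancreas markers at 0.383 to 2.01 CPM (r = 0.01). The part of these cells in the levels of the fat genes was not tested.

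In liver footprints 5 of the 9 genes were below their lowest kidney value in all 18 libraries. Of 14619 genes with enough counts in kidney footprints to be tested there, 35.3% behave so, and genes seen only in liver are not among them. Adipoq was at 0 to 0.114 CPM in liver and Plin1 at 0 to 0.571 CPM. Ucp1 and Lep had 0 reads in all 18 liver libraries. A floor of 3 counts over the 261180968 liver counts covers counting error only. Against it the mean kidney level was at least 1733-fold higher for Ucp1 (19.9 CPM, 0 to 57.1 over libraries). For Lep (1.51 CPM, 0.0740 to 4.98) it was at least 131-fold higher. Retn reached 0.376 CPM and Fabp4 lay between 2.69 and 13.5 CPM. Cfd was at 0 to 6.75 CPM, which overlapped kidney, and Cidec at 1.17 to 64.2 CPM, which spanned most of the kidney range. Car3 went the other way, with 168.1 to 4175 CPM in liver and a median of 2214 CPM against 123.5 CPM in kidney.

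**Figure D4:**
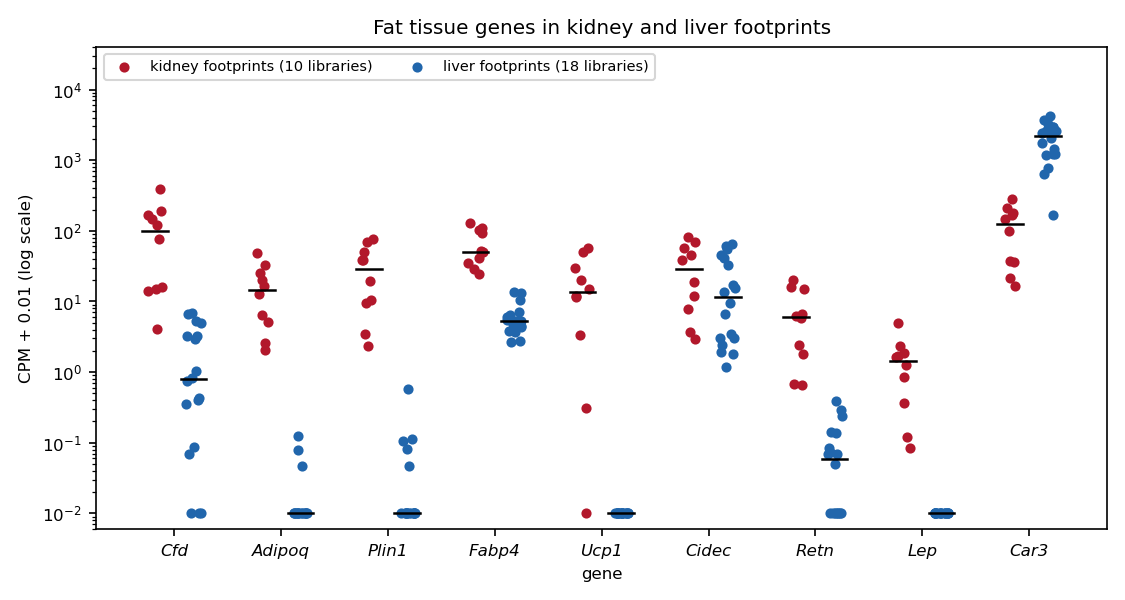
Level of each gene (CPM + 0.01, log axis) in 10 kidney (red) and 18 liver (blue) footprint libraries. Points are libraries and black lines are medians. Ucp1 and Lep are at 0 in every liver library, Cidec overlaps between the tissues, and Car3 is higher in liver (medians of 2214 and 123.5 CPM).

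The tissues were also compared over all genes with edgeR (quasi-likelihood test, Benjamini-Hochberg), between libraries labelled 3, 20 and 32 months. It called 11648 of 15676 genes (74.3%), 6190 higher in kidney (39.5%) and 5458 lower (34.8%). DESeq2 called 11705 (74.7%), and edgeR without kidney library 2 labelled 3 months called 12170 (78.3%). With library-size scaling alone, the split was 9843 against 2669, and the median over all genes moved from 0.05 to 0.72 log2. Against this background, 10 of 23 other adipocyte genes were higher and 8 lower (median log2 0.41), or 14 and 8 with library-size scaling alone. The insulin-responsive glucose transporter Slc2a4 was higher in kidney by 4.82 ± 0.24 log2 (SE), and Rarres2 (−4.64 ± 0.21), Agpat2 (−2.64 ± 0.13) and Cebpa (−3.51 ± 0.20) were lower. Of 11 fatty acid synthesis genes 1 was higher and 10 lower (median −1.77). The desaturase Scd1 was at −5.47 ± 0.40, with Elovl6 at −3.65 ± 0.21, Acaca at −2.43 ± 0.18 and Slc25a1 at −1.47 ± 0.12. Of 12 tested brown adipocyte genes 8 were higher and 2 lower (median 3.05), with Prdm16 at 4.88 ± 0.21, Cox7a1 at 2.83 ± 0.26, Elovl3 at −6.47 ± 0.63 and Slc25a20 at −1.41 ± 0.17. Of 10 white adipocyte genes 6 were higher and 4 lower (median 0.95). The homeobox gene Hoxc9 was at 8.80 ± 0.40, and Wfdc21 (−11.53 ± 0.29), Igf1 (−6.58 ± 0.20) and Agt (−3.79 ± 0.16) were lower. Of the named genes higher in kidney, r with the mean of the 9 over kidney footprints was 0.07 for Prdm16 and −0.04 for Cox7a1. It was 0.29 for Slc2a4 and −0.14 for Hoxc9, so these named genes followed the fat genes little within kidney. Other genes of the lists that were called higher in kidney went both ways. With the mean of the 9, r was 0.94 for Cox8b and 0.93 for Aoc3, but −0.006 for Ppargc1a and −0.19 for Nrip1. Kidney and liver libraries were not paired by animal.

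Between age labels in kidney footprints, 7 of the 9 genes had every 20-month library above every 32-month library, which 6.24% of 14619 genes did; these members were listed with such values known, so nothing is read from the count. Log2 differences of 20 from 3 months (described, with no test) were 1.54 ± 0.77 for Adipoq, 1.07 ± 0.47 for Fabp4, 1.32 ± 0.75 for Car3 and 2.18 ± 0.81 for Lep (SE). For Ucp1 the difference was 0.48 ± 1.41, and leaving out single libraries moved it between −0.61 (without library 3 labelled 20 months) and 1.51 (without library 4 labelled 3 months). The size of these differences depended on single libraries. For Lep it was 3.95 without library 1 labelled 3 months and 1.56 without library 2 labelled 20 months. Without library 4 labelled 3 months it was 2.31 for Adipoq and 1.81 for Fabp4, and without single libraries it ran from 0.97 to 1.80 for Car3. From 20 to 32 months the differences were −2.07 ± 0.87 for Adipoq, −2.67 ± 1.22 for Cfd, −2.30 ± 1.00 for Cidec and −1.27 ± 1.56 for Ucp1. All 4 were lower at 32 months, by amounts that single libraries moved. With single libraries left out they ran from −2.59 to −1.73 for Adipoq, from −2.72 to −2.03 for Cidec and from −1.87 to −0.18 for Ucp1. For Cfd the difference was −3.92 without library 1 labelled 32 months and −2.11 without library 1 labelled 20 months. The 2 comparisons share the 20-month libraries.

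No gene was called between ages by edgeR over 14621 genes (0% in each comparison). For 20 against 3 months 1981 genes had an unadjusted p under 0.05 and DESeq2 called 385 (2.63%). For 32 against 3 months these counts were 632 and 2 (0.0137%), and for 32 against 20 months 313 and 2. Without library 2 labelled 3 months edgeR called 255 genes (1.76%) between 20 and 3 months and 1 (0.00691%) between 32 and 3 months. Of the 23 other adipocyte genes 19 had positive differences between 20 and 3 months with all libraries (median 0.50, against −0.01 over all genes), as did 8 of 11 fatty acid synthesis genes (median 0.24), 6 of 12 brown genes (−0.08) and 5 of 9 tested white genes (0.07). In the same comparison, lipoprotein lipase (Lpl) was at 1.10 ± 0.25 log2 (SE, adjusted p = 0.181, edgeR), and DESeq2 called it. Gpd1 was at −0.11 ± 0.19, Dgat2 at 0.09 ± 0.15, Pck1 at −0.61 ± 0.30, Fasn at 0.43 ± 0.59 and Scd1 at 0.61 ± 0.56. Pank1 was at 0.54 ± 0.21, Slc25a20 at 0.02 ± 0.38 and Ppargc1a at −0.18 ± 0.23, with Cyp2e1 at 0.39 ± 0.46, Nrip1 at −0.29 ± 0.19 and Agt at −0.09 ± 0.25. The same 12 genes lay between −0.52 (Fasn) and 0.65 (Lpl) at 32 against 3 months, and between −0.999 (Scd1) and 0.22 (Pck1) at 32 against 20 months.

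RNA with a kidney profile held the same genes. The sum of the 9 was 195.9 to 2144 CPM with a median of 900.1 CPM over the 10 libraries. Fabp4 was at 127.3 to 761.0 CPM, Cfd at 8.59 to 608.4 CPM, Adipoq at 3.66 to 123.2 CPM, Ucp1 at 0.192 to 132.5 CPM and Lep at 0 to 1.81 CPM. Since labels and profiles disagreed, each RNA library was matched to its closest kidney footprint library over 400 variable genes that exclude the fat lists. Of the 10 RNA libraries 8 formed a pair in which each was the closest of the other, with r = 0.790 to 0.945 across genes, and 0 of them carried the same label. Outside these pairs, the RNA library labelled kidney at 3 months with number 2 had a sum of 2144 CPM, against 69.8 CPM in its closest footprint library (r = 0.616, next 0.608). Its Ucp1 was at 132.5 against 0.296 CPM. The RNA library labelled liver at 1 month with number 1 had a sum of 572.8 against 296.0 CPM (r = 0.678). Only listed fat genes were excluded from the matching, so Lgals12 and Nat8l, which followed the 9, were not removed beforehand.

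In the 8 pairs, kept because they matched, the sum of the 9 genes followed between the assays, with r = 0.997 on log2 values. This r was 0.993 without the 2 libraries farthest from the median. The sum in RNA was 2.00 to 3.39 times that in footprints, with 2.59 or more in the 4 pairs of lowest sum and 2.21 or less in the 4 of highest. Ucp1 followed as closely (r = 0.997), from 0 CPM in footprints and 0.192 CPM in RNA to 57.1 and 86.4 CPM. Lep had r = 0.864, and 0.463 without the 2 farthest libraries. The ratio of RNA to footprints differed between the genes: its median log2 was 2.19 for Fabp4, 1.36 for Adipoq, −0.10 for Plin1, −0.16 for Cidec and −1.03 for Lep, against a median of −0.28 over 12536 genes. Fabp4, with the highest of these, made 51.3% to 65.0% of the RNA sum in the 4 pairs of lowest sum. In the 4 pairs of highest sum its share was 27.9% to 41.0%. The split in the ratio of the sum therefore rests in part on Fabp4. Lep was lower in RNA in 8 of 8 pairs, from at most 13 reads in an RNA library. Reads of each assay cover different parts of a transcript, so these ratios compare genes only through that background.

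**Figure D5:**
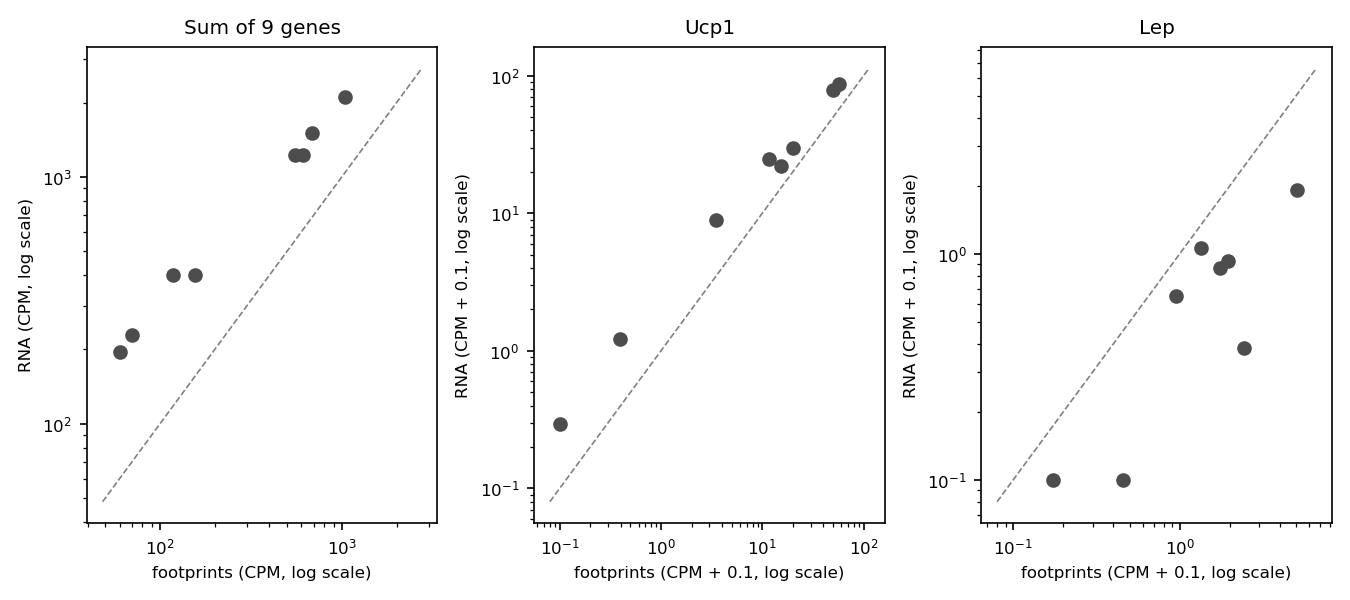
RNA against footprints in the 8 matched pairs, for the sum of the 9 genes, Ucp1 and Lep (CPM on log axes, with 0.1 added for Ucp1 and Lep). Points are pairs and the dashed line marks equal values. The sum and Ucp1 lie above the line, nearer to it at high levels (ratio of the sum 2.59 to 3.39 in the 4 lowest pairs and 2.00 to 2.21 in the 4 highest), and all 8 points of Lep lie below it. Fabp4, with a high ratio, makes a larger share of the RNA sum in the 4 lowest pairs.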

How the data were processed

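Footprint and total RNA libraries were made from lysates of frozen tissue, per the labels' protocols: footprints by digestion with RNase T1 and S7, RNA by depletion of ribosomal RNA and a directional kit. The authors deposited raw read counts per gene, without normalization. Per the submitters' processing notes, reads were handled with cutadapt 1.14 and STAR 2.5.3 and the build was mm10. How reads were assigned to genes, and with which annotation, is not given in the sources used here. A symbol was found for 49998 of 50222 identifiers, and 136 identifiers shared theirs with another.

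Members and gene lists were chosen with earlier results of these data known. Levels are CPM of the library total. Kidney-profile RNA means Kap above 10000 CPM. Fits used edgeR 4.0.16 in R 4.3.3 (filterByExpr with minimum count 10, TMM, robust quasi-likelihood, two-sided, Benjamini-Hochberg at 0.05), over the 10 kidney or all 28 footprint libraries, and DESeq2 1.42.0 as an alternative. Each SE was derived from the F statistic of its test. The edgeR fit was tested on simulated counts. Other alternatives were RLE and library-size scaling, no filter, only the compared ages, a replicate block, another pseudocount (1 for 0.1 CPM) and each library left out. Deviations from group means correlated at 0.0259 on average between kidney libraries with the same number at different ages (9 pairs, −0.207 to 0.222), so the numbers were not taken to pair libraries.

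Named genes follow a rule: for each list, up to 4 called genes of smallest adjusted p or, where none was called, up to 3 of highest mean CPM, and the 10 genes most like the members. After the values were seen, gene-by-gene results were limited to the 4 lists of fat genes. The 15 lists of other cell types were described by summed levels, with single genes added where they led a sum or differed from it. These single genes and Zic1, Lhx8, Fgf10, Nnat, Ebf2, Otop1, Kcnk3, Elovl3 and Dio2 were named after their values were seen. The matching of RNA to footprints and the motif search were also chosen after the data were seen. Promoters come from RefSeq (GRCm38.p6). Python 3.11.15 was used for levels. Intervals and floors cover counting error only, since the labels name no molecular identifiers.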

Additional observations from a re-analysis of the deposited data

Results flagged for a closer look

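In the 4 kidney footprint libraries labelled 3 months, 29 measures were screened for a library far from the other 3, and 3 stood out. Chance marks about 1 in 20 such groups. The summed adrenal cortex markers were at 302.8 CPM in library 4, against 2.03 to 2.79 CPM in the others. The summed adrenal medulla markers were at 79.1 CPM in the same library, against 0 to 0.109 CPM. The summed mesothelium markers were at 18.1 CPM in library 2, against 107.7 to 116.1 CPM. Of its 5 markers, Gpm6a alone was at 7.38 CPM there and at 96.7 to 104.4 CPM in the others, while the other 4 summed to 10.7 CPM there and to 5.08, 11.0 and 11.7 CPM in libraries 1, 3 and 4. None of the 9 fat genes stood out in this way.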

How the results depend on the processing

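Library 2 labelled 3 months and the choice of tool set the counts of called genes between ages. For 20 against 3 months edgeR called 0 genes, no filter gave 3, DESeq2 385, and left-out libraries 0 to 255. For 32 against 3 months DESeq2 called 2 and left-out libraries gave 0 to 1, and for 32 against 20 months DESeq2 called 2. With the replicate block the 3 counts were 0, and kidney against liver had 11522 calls against 11648; the block took no named fat gene across the threshold. The block moved 10 differences of members by more than their spread, all against 3 months. At 20 months Adipoq, Plin1, Fabp4, Cidec and Retn were further above 0 (Adipoq at 2.59). At 32 months the same 5 went from below 0 to above it (Adipoq from −0.53 to 0.53). Among kidney footprints only the 3-month label has a library numbered 4, so the block term for that number fits this library alone. That library then has no weight in differences against 3 months. Leaving it out moved Adipoq the same way at 20 against 3 months, to 2.31. The block is therefore not separate from leaving out that library. The median sum of the 9 genes was 2271 CPM in RNA labelled kidney, of which 7 of 10 libraries have a liver profile, against 900.1 CPM by Kap. The correlation of members had a median of 0.879, and 0.840 to 0.950 with a library left out. Left-out libraries also took differences at 32 against 3 months across 0 for Adipoq (−1.05 to 0.24), Fabp4 (−0.42 to 0.56), Retn (−1.42 to 0.48) and Ucp1 (−1.38 to 0.24). Those of Car3, Cfd, Cidec and Plin1 stayed below 0 and that of Lep above it.

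Of 960 values of 25 named fat genes, without the 9 members, under alternatives, 27 (of 10 genes, all uncalled) changed sign. With the replicate block, log2 differences were 0.039 for Agt at 20 against 3 months, and 0.080 for Dgat2, 0.24 for Fasn and 0.44 for Scd1 at 32 against 3 months; without a filter Dgat2 was at 0.0043. With libraries left out, they ran at 20 against 3 months from −0.23 to 0.019 (Gpd1), −0.28 to 0.17 (Slc25a20), −0.32 to 0.090 (Ppargc1a) and −0.29 to 0.024 (Agt). At 32 against 3 months they ran from −0.080 to 0.076 (Dgat2), −0.71 to 0.43 (Scd1), −0.057 to 0.39 (Slc25a20), −0.33 to 0.082 (Ppargc1a), −0.16 to 0.40 (Cyp2e1) and −0.19 to 0.12 (Agt). At 32 against 20 months they ran from −0.34 to 0.010 (Pank1), −0.076 to 0.084 (Ppargc1a) and −0.067 to 0.12 (Nrip1). Of 60 genes named by the rule in the 15 other lists, whose log2 differences are not given, 25 changed sign in 63 of 2968 values. Apart from the construction of each alternative, the cause was not tested. Lep rests on 1 to 62 reads in a kidney footprint library, which limits its ratios.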
